A study of Mus musculus with 12 samples.

Results

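Long mRNA peaks were m6A peaks that were listed over 1500 bases or more. They were chosen by their length alone, start to end, in the 6 mRNA peak lists of mouse neural stem cells, and 11869 of the 83673 listed mRNA peaks qualified. Peaks that overlapped by at least 1 bp in different lists were merged, which gave 2856 long regions among the 27079 merged mRNA regions. A region was kept if it held a long peak in at least 1 list, so a region could also hold shorter peaks in other lists. The long peaks named 2682 of the 10030 genes with any mRNA peak (26.7%), and 1090 of those genes (10.9%) had a region that was long in all 6 lists.

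The peaks were measured by MeRIP-seq: broken RNA was captured with an m6A antibody (IP), sequenced, and set against RNA that had not been captured (input). In the H/R group, C17.2 cells were kept for 12 h at 5% O2 and then for 48 h at standard oxygen, a model of ischemia followed by reperfusion. In the control group the cells were not exposed to hypoxia. Both groups were the same cell line, with 3 IP and 3 input samples each, giving 3 mRNA lists per group, here called H/R A, B and C and control A, B and C. C17.2 is a single immortalised line of mouse neural progenitors, and nothing in the labels says that the replicates were separate cultures, so the spread between lists may be technical.

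N6-methyladenosine (m6A) is placed on mRNA by a writer complex built around METTL3 and METTL14, which acts on adenosines in the sequence family DRACH, and it is bound by reader proteins of the YTH family. In mammalian mRNA the mark is known to concentrate in long internal exons and around stop codons, and less of it is found near splice junctions. Because RNA is broken into short fragments before capture, a peak much longer than a fragment covers many overlapping fragments and cannot show how many adenosines carry the mark.

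Of the neural stem cell markers, Nes and Sox2 were listed in all 6 libraries, each with a long peak in all 6. Nes, an intermediate filament gene, had a peak of 5031 bases in every list, with fold enrichment of 33.41, 23.71 and 21.95 in H/R and 50.49, 62.38 and 39.66 in control. Among the other marker lists, Map2 of neurons was long in 4 lists, and Gfap of astrocytes was listed in 2 lists and long in none. Vim, Pax6, Prom1, Tubb3, Rbfox3, Aqp4, Aldh1l1, Mog, Mbp, Aif1, Cx3cr1 and Ptprc had no mRNA peak in any list. A peak list shows methylated transcripts and not expression levels, so an unlisted marker may still be expressed.

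The sequences at the centre of the strongest and of the most group-specific long regions are shown first, since the results below return to these genes. Each is the DRACH site with the core GGAC nearest the middle of the region's longest peak, with 10 bases on each side, on the transcript strand in mm10 (GRCm38). Capitals mark the GGAC site of 5 bases. The first 5 lay in regions long in all 6 lists, Rbm15b and Htr1b in regions called only in H/R lists, and Bbs10 in a region called only in control lists.
Fam43a, chr16:30601286-30601310, plus strand: gctcttgcacGGACCttgctgctac
Ppp1r9b, chr11:94992074-94992098, plus strand: ccggcctgcaGGACCggaagctgga
Klhl26, chr8:70451656-70451680, minus strand: gccgaccagtGGACCagtgtgacac
Prr12, chr7:45048468-45048492, minus strand: tgccgctaagGGACTcggtggcagt
Phrf1, chr7:141259306-141259330, plus strand: tctgaggaacGGACAgtgacgtgtg
Rbm15b, chr9:106885371-106885395, minus strand: gtgcgggataGGACCcctccacacc
Htr1b, chr9:81631429-81631453, minus strand: tgtccaatgaGGACTtcaaacaagc
Bbs10, chr10:111300397-111300421, plus strand: ataagtatcaGGACAtagtagcaaa
All 8 sites lay in coding sequence. None was the only candidate in its region: the longest peak held 43 DRACH sites in Fam43a, 16 in Ppp1r9b, 43 in Klhl26, 43 in Prr12, 66 in Phrf1, 58 in Rbm15b, 54 in Htr1b and 65 in Bbs10. The window does not show which of them was methylated.

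The number of long peaks per list was 2213, 2160 and 2024 in H/R and 2235, 1766 and 1471 in control. The H/R and control lists overlapped in this count (2132 ± 97.5 in H/R and 1824 ± 385 in control, SD, n = 3 each). As a share of the list, long peaks made up 11.8%, 15.5% and 9.18% in H/R, against 18.3%, 19.8% and 18.7% in control. The H/R lists were longer, with 18706, 13954 and 22038 mRNA peaks, against 12180, 8932 and 7863 in control. Since length chose the peaks, these counts are descriptions without a test.

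Long peaks carried 45.1%, 52.3% and 40.02% of all called bases in H/R and 53.6%, 54.7% and 54.1% in control. Their median length was 2187, 2230 and 2120.5 bases in H/R and 2192, 2222 and 2235 bases in control, so the typical long peak had nearly the same size in both groups. When every list was reduced to its 7863 highest peaks by p score, the number of long peaks was 1730, 1719 and 1570 in H/R and 1861, 1677 and 1471 in control. Just inside the limit were peaks of 1500 bases in Ap5z1, Lmod1 and Utp15, and just outside it peaks of 1499 bases in ATF7, Bdkrb2 and Nek6. Over all lists, 647 peaks were within 50 bases above the limit and 638 within 50 bases below it.

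**Figure D1:**
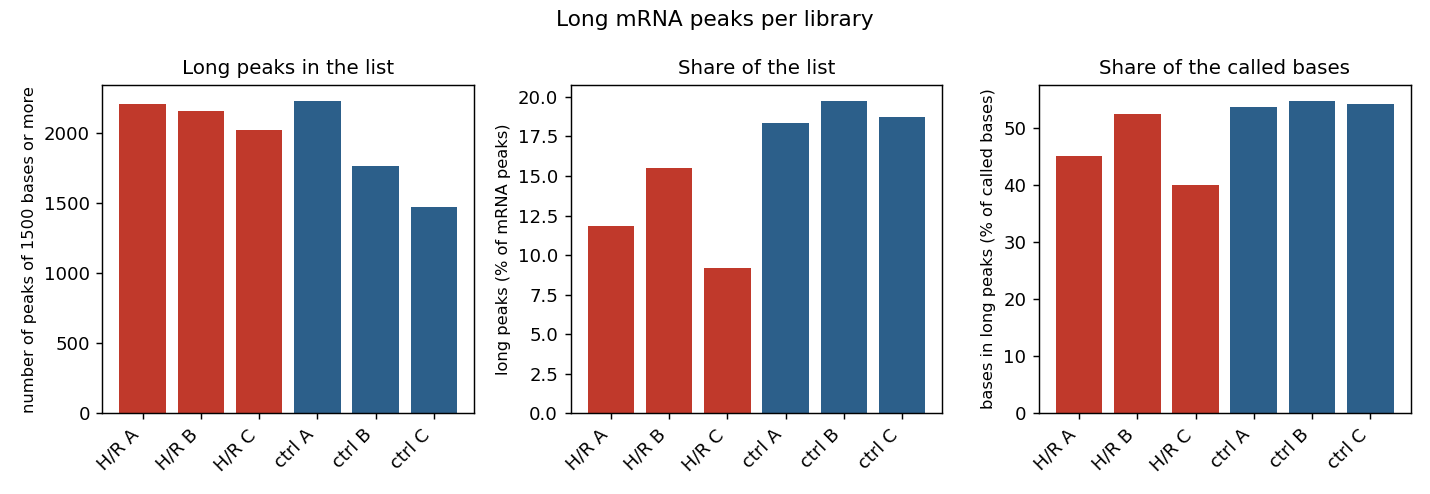
Bars give, for each of the 6 mRNA lists (H/R A to C, then control A to C), the number of long peaks, their share of the list's peaks (%) and their share of all called bases (%). The number of long peaks overlapped between the groups, while their share of the peaks was 9.18% to 15.5% in H/R and 18.3% to 19.8% in control.

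The ends of long peaks often met exon borders. Between 96.8% and 97.6% of them lay in a single exon in every list, and 41.2%, 48.6% and 37.4% in H/R and 45.5%, 47.3% and 47.7% in control began and ended within 1 base of the exon's own ends. The authors' own program screened the called peaks for those on mRNA exons, and whether it also trimmed them to the exon was not stated. A few listed peaks ran past the exon of their listed transcript, as in Eppk1 (10520 bases in H/R B, exon of 9121 bases). The 5′ end of a long peak was at the start of its exon in 89.2% to 92.5% of cases, whereas its 3′ end was at the end of the exon in 40.8% to 51.7%. In shorter peaks the 3′ end was at the exon's end in 76.7% to 86.2%, and the 5′ end at its start in 81.9% to 92.5%. Whole exons were more common among shorter peaks, at 64.8% to 80.3%, so meeting exon borders was not particular to long peaks.

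The position of the ends repeated between lists. In the 1142 regions that were long in all 6 lists, the 5′ end was at the identical base in all 6 in 1000 regions (87.6%), and the 3′ end in 497 (43.5%). Both ends were identical in 447 regions (39.1%). The median spread of the 3′ end over the 6 lists was 46.5 bases. In each list, 89.2% to 92.5% of long peaks began at an annotated exon start, and the lists share that annotation. Whether the ends repeat apart from it was not tested.

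Prr12 and Zfp651 show such an exon with its surroundings, in the 2 internal-exon regions with the highest fold in their lowest list. Below, exon bases are in capitals and intron bases in lower case, on the transcript strand in mm10, and all 6 lists called the exon whole.
Prr12 exon start, chr7:45050117-45050140, minus strand: cttcatccctagCCATGCACACAC
Prr12 exon end, chr7:45046827-45046850, minus strand: AAGCCACTTAAGgtgagggggact
Zfp651 exon start, chr9:121762607-121762630, plus strand: ttggccccacagTTGCTGGTTGAG
Zfp651 exon end, chr9:121764110-121764133, plus strand: CGCAACATCCAGgtgagacatgct
The intron ended in AG before both exons and began with GT after them, the usual splice site letters. Over the 312 whole internal exons among the long regions, AG preceded the exon in 311 and GT followed it in 311. Prr12 exon 4 of 14 was called over the same 3290 bases in every list, with fold enrichment of 84.58, 97.34 and 138.89 in H/R and 133.97, 197.65 and 107.37 in control. Zfp651 exon 2 of 6 was called over the same 1503 bases, with fold enrichment of 83.41, 118.64 and 112.44 in H/R and 200.49, 269.91 and 127.82 in control. The H/R and control values overlapped in Prr12 and did not overlap in Zfp651.

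Most long peaks lay at the end of the transcript. The last exon held 81.4%, 81.1% and 80.3% of them in H/R and 81.9%, 78.4% and 76.7% in control, against 23.2% to 29.8% of shorter peaks. The exon of a transcript with a single exon counted as last here. Such transcripts held 6.31% to 7.18% of long peaks and 1.10% to 1.45% of shorter peaks. The annotated stop codon was inside 73.5% to 78.3% of long peaks and inside 17.2% to 25.7% of shorter peaks. The 3′UTR, the untranslated stretch after the stop codon, made up 49.1 ± 2.89% of the bases in long peaks and 31.5 ± 2.10% in shorter peaks (SD, n = 6 lists). This difference of 17.6 percentage points was positive in 6 of 6 lists (exact two-sided sign-flip permutation test, p = 0.031, the smallest that 6 lists allow, and 0.031 after Benjamini-Hochberg adjustment over 6 measures). A long peak within 1 exon needs a long exon, and most long exons are last exons, so this test cannot separate position from length.

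Coding sequence made up 48.6 ± 2.75% of the bases in long peaks and 56.1 ± 1.31% in shorter peaks, and the 5′UTR 2.32 ± 0.159% and 12.4 ± 1.21% (SD, n = 6 lists, exact p = 0.031 each, adjusted p = 0.031). Length limits these tests in the same way as that of the 3′UTR. Between the groups, no difference in these shares exceeded the spread. The 3′UTR share of long peaks was 50.6 ± 1.24% in H/R and 47.5 ± 3.42% in control (SD, n = 3 each, exact two-sided permutation test, p = 0.3, where 3 against 3 lists cannot go below 0.1). The coding share was 47.1 ± 1.16% in H/R and 50.2 ± 3.20% in control (exact p = 0.2).

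A peak confined to 1 exon can only be long if the exon is long, and 86.3% of the 6886 exons of 1500 bases or more in the listed transcripts were last exons of several. Read per available exon, the order was the opposite. Exons of different transcripts can overlap and were counted separately, and any overlap with a long peak counted. One long peak can thus count for several exons: 2567 exons carried a long peak in H/R A, which had 2213 long peaks. Of the 678 long first or internal exons, 67.1%, 66.5% and 64.5% carried a long peak in H/R and 65.5%, 62.8% and 56.8% in control. Of the 5943 long last exons, 33.0%, 31.9% and 30.0% carried one in H/R and 33.7%, 25.6% and 20.7% in control. The share was 63.9 ± 3.79% for first or internal exons and 29.1 ± 5.06% for last exons (SD, n = 6 lists), higher by 34.7 percentage points and higher in 6 of 6 lists (exact sign-flip permutation test, p = 0.031). This comparison was added after the positions of the peaks were seen. A peak of any length was present in 81.6%, 74.3% and 84.8% of the first or internal exons in H/R and 74.6%, 68.3% and 62.1% in control, and in 60.02%, 47.9% and 63.96% of the last exons in H/R and 53.02%, 39.6% and 32.3% in control. The median length of these exons was 2096 bases for first or internal exons and 2624 bases for last exons. Transcripts of a single exon lay between them, at 56.6%, 56.2% and 51.7% of 265 in H/R and 54.3%, 44.5% and 40.8% in control.

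The 10 regions that were long in all 6 lists with the highest fold in their lowest list were in Fam43a, Ppp1r9b, Klhl26, Prr12, Zfp651, Phrf1, Tbc1d10b, Sox12, Cebpb and Mesdc1. Fold enrichment is the IP signal of a peak over its input. Fam43a, whose transcript is a single exon, had a long peak of 2902 to 3075 bases with fold enrichment of 136.37, 129.75 and 155.77 in H/R and 321.69, 294.37 and 243.7 in control. All 3 control values were above all 3 H/R values. Ppp1r9b, which encodes spinophilin, a scaffold for protein phosphatase 1 in dendritic spines, was called over the same 1884 bases of its first exon in all 6 lists. Its fold was 104.93, 117.37 and 123.21 in H/R and 195.47, 215.44 and 180.0 in control, again without overlap.

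Klhl26, a kelch protein of the kind that brings substrates to cullin ubiquitin ligases, was called over the same 2792 bases of its last exon in every list. Its fold was 113.94, 86.51 and 122.34 in H/R and 170.81, 228.95 and 128.86 in control. Phrf1, which encodes a PHD and RING finger protein, was called over the whole of its exon 14 (2676 bases), with 81.78, 132.23 and 102.26 in H/R and 162.62, 204.04 and 153.46 in control. In both genes every control value was above every H/R value. Cebpb, a transcription factor encoded by a single exon, had the same 1518 bases called in all lists, with 91.91, 77.5 and 91.99 in H/R and 123.53, 159.26 and 79.75 in control, which overlapped. Mesdc1 also overlapped, at 92.99, 85.59 and 132.83 in H/R and 76.69, 138.31 and 143.53 in control.

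In all, 99 regions were wider than 5000 bases, and Kcnq1ot1, Eppk1 and Stard9 were among the 5 widest. The Kcnq1ot1 peak of 14777 bases, on the antisense noncoding RNA of an imprinted locus, was called only in H/R A. Eppk1, which encodes the cytoskeletal linker epiplakin, had a longest peak of 6667, 10520 and 9293 bases in H/R and 10687, 10530 and 5793 bases in control, with fold enrichment of 16.24, 19.05 and 18.16 in H/R and 16.45, 36.32 and 25.66 in control, which overlapped.

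Fold enrichment as a whole was lower in H/R lists than in control lists. The median over the long peaks was 14.01, 18.7 and 15.7 in H/R and 25, 35.4 and 27.1 in control (16.1 ± 2.39 and 29.2 ± 5.52, SD, n = 3 each). The groups did not overlap, with a difference of -13.0 (exact two-sided permutation test, p = 0.1, the smallest possible, and 0.30 after adjustment over 9 measures). In the 1524 long regions called in all 6 lists, the median of the region's highest fold was 17.99, 22.4 and 19.7 in H/R and 32.1, 40 and 28.4 in control (20.0 ± 2.20 and 33.5 ± 5.94, SD, exact p = 0.1, n = 3 each). Shorter peaks moved the same way, at 8.84, 14.9 and 9.66 in H/R and 21.2, 33.5 and 28.1 in control.

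Long peaks were next set against the shorter peaks of the same list. The ratio of the long to the shorter median fold was 1.58, 1.26 and 1.62 in H/R and 1.18, 1.06 and 0.964 in control (1.49 ± 0.202 and 1.07 ± 0.108, SD, n = 3 each, exact two-sided permutation test, p = 0.1). With every list at 7863 peaks the ratio was 0.985 in H/R and 0.984 in control (exact p = 0.9, n = 3 each), and with peaks at a fold of at least 10 the difference was 0.0771 (exact p = 0.4, n = 3 each), so most of the difference in this ratio was gone in both. This ratio was chosen after the fold values were seen. The lower median fold of long peaks in H/R was still there at equal list length, at 18.7 in H/R and 30.7 in control (exact p = 0.1, n = 3 each). The lists moved with other measures too: the p score, which is -10 times the log10 of the peak's p-value, stood at 3100 or more in 44.2%, 30.3% and 42.2% of long peaks in H/R and in 21.0%, 13.4% and 9.04% in control. The lists do not give sequencing depth, and its part in these differences was not tested. By the FDR the authors listed, 2 long peaks of H/R C and 1 of control A were at 5% or below, and the other 4 lists had none.

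**Figure D2:**
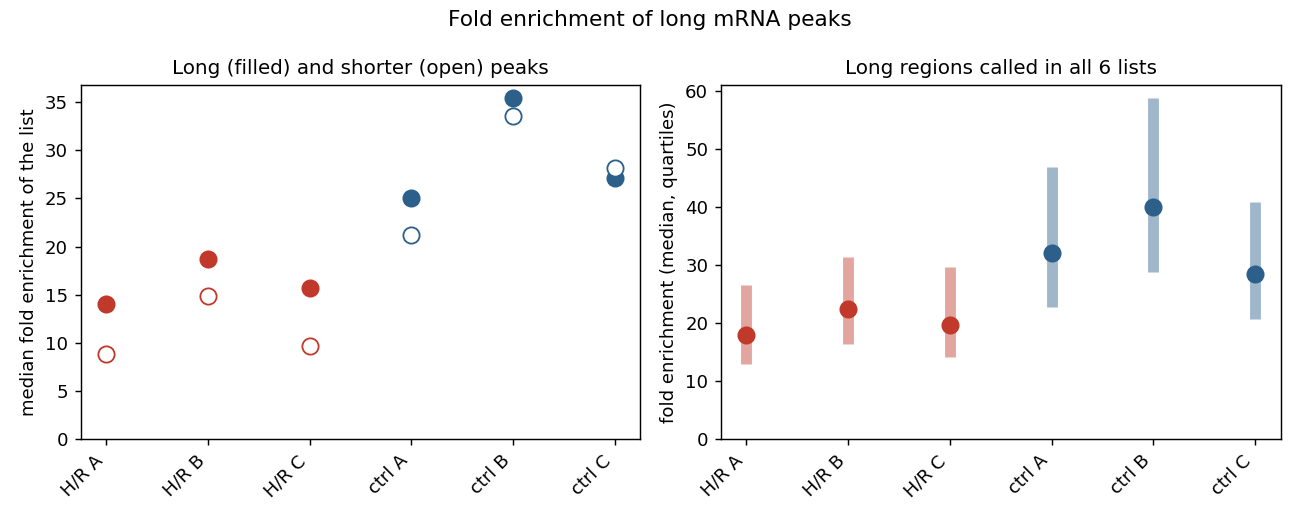
On the left, the median fold enrichment (IP over input) of long peaks (filled) and shorter peaks (open) in each list; on the right, the median and quartiles of fold enrichment in the 1524 long regions called in all 6 lists. In both panels every H/R median is below every control median, and the filled and open points are farther apart in H/R, a spacing that was not seen at equal list length (ratio of long to shorter 0.985 in H/R and 0.984 in control).

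Within the 1524 regions, every control list had a higher fold than every H/R list in 937 (61.5%), beside 54.3% of all 5950 merged regions called in all 6 lists. The opposite order held in 2 (0.131%), beside 0.168% of all such regions. These 2, named after their values were seen, were Kbtbd11 and Trerf1. Kbtbd11, a kelch and BTB domain gene, had fold enrichment of 46.23, 59.43 and 81.67 in H/R and 19.46, 29.12 and 23.94 in control. Trerf1, a zinc finger transcriptional regulator, had 30.69, 30.94 and 30.33 in H/R and 15.69, 27.87 and 13.94 in control. Among the regions with the widest gap in the other direction, also named after their values were seen, was Ddx28, an RNA helicase, with 16.89, 13.97 and 16.74 in H/R and 49.16, 42.71 and 51.14 in control. Rprd2, a regulator of RNA polymerase II, had 9.09, 12.94 and 9.32 in H/R and 41.56, 47.91 and 31.43 in control.

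Presence in the lists showed a broad overlap. Of the 2856 long regions, 1524 (53.4%) had a peak of any length in all 6 lists, beside 22% of all merged regions. An overlap of 1 bp counted as presence, and the long regions were wide (median 2208 bases). A wide region can meet a peak in more lists by its width alone. The part of width in this and the following shares was not tested. The number of regions long in exactly 1, 2, 3, 4, 5 and 6 lists was 448, 301, 304, 297, 364 and 1142. A peak in all 3 H/R lists but none of the control lists, here called H/R-only, was found in 64 long regions (2.24%), beside 6.21% of all merged regions, and the reverse, control-only, in 3 (0.105%), beside 0.0628%. Leaving out control A raised the 64 to 241 and leaving out H/R B raised it to 121, and control A was the longest control list. With every list at 7863 peaks, 12 long regions (0.502%) were found only in H/R and 26 (1.09%) only in control, beside 1.40% and 1.27% of all regions.

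Rbm15b carried the strongest long peak that was listed only in H/R. It encodes an RNA-binding subunit that recruits the m6A writer complex to its targets. The 3 H/R lists called the same 3016 bases at chr9:106883985-106887000, 88.3% of them coding sequence, with fold enrichment of 63.52, 69.26 and 55.53. No control list had a peak there. All 3 H/R peaks were at the p score of 3100, and the site printed above is near their middle.

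Fhdc1, a formin-homology gene, had long peaks in all 3 H/R lists (2656, 2764 and 2403 bases, fold 35.52, 26.27 and 52.14) and no control peak. Htr1b, the serotonin receptor 1B, had peaks of 2295 and 2903 bases in H/R A and B and a longest of 2 peaks of 1645 bases in H/R C, with fold enrichment of 18.03, 21.56 and 16.76, and no control peak. Ccdc6 was called over the same 4123 bases of its last exon in the 3 H/R lists, 95.1% of them 3′UTR, with fold enrichment of 16.02, 21.32 and 15.8. Apc2, a relative of the Wnt pathway gene Apc, had peaks of 5975, 5972 and 5693 bases in its last exon, with fold enrichment of 14.19, 22.3 and 14.14. The 64 H/R-only regions together had a median fold of 11.1, a median width of 1977 bases and a median 3′UTR content of 85.2%.

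Long regions found only in control lists were Bbs10, Tpm2 and Ccdc137, the last 2 named after their values were seen. Bbs10, a chaperonin-like gene of the Bardet-Biedl group that serves the primary cilium, was the only one long in all 3, with peaks of 2504, 2498 and 2524 bases and fold enrichment of 11.81, 24.17 and 13.43. Tpm2, a tropomyosin, had peaks of 2278, 1452 and 2278 bases with fold enrichment of 38.77, 59.39 and 49.37. In Ccdc137 the peaks were of 1664, 1496 and 1496 bases.

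Counting length rather than presence, 44 of the 2856 long regions (1.54%) were long in every H/R list but never in a control list. The reverse held in 13 (0.455%), shorter peaks being allowed in the other group. Length defined both classes, so their counts are descriptions without a test. The order of these counts turned round at equal list length, with 15 and 25, and at a fold of at least 10, with 27 and 33. Pvrl1, the adhesion receptor nectin-1, had a longest peak of 3990, 2381 and 2237 bases in H/R and of 903, 724 and 691 bases in control. Its fold went the other way, at 48.28, 65.71 and 52.12 in H/R and 119.4, 90.0 and 80.56 in control. Lzts3 had the same pattern, with 2010, 2690 and 2573 bases in H/R and 1108, 1320 and 1156 bases in control. Kcnk5, a pore-domain potassium channel, had 1646, 1581 and 1784 bases in H/R and 921, 1097 and 1104 bases in control. In these 3 genes the lengths did not overlap between groups, as the choice of regions required.

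In the reverse direction, Flrt1, a leucine-rich repeat adhesion protein, had a single peak of 1040 bases in H/R A, none in H/R B and 2 peaks of at most 356 bases in H/R C. In control it had peaks of 4323, 4450 and 2958 bases with fold enrichment of 48.89, 60.0 and 69.33, against 8.84 and 13.8 in H/R A and C. Dnhd1, a dynein heavy chain domain gene, was called over a whole internal exon of 1609 bases in the 3 control lists and over 1353, 1360 and 1443 bases in H/R. Clpb, a mitochondrial chaperone, had 1462, 876 and 603 bases in H/R and 1680, 1516 and 2396 bases in control. Flrt1 had the shortest H/R peaks of these, whereas Dnhd1 stayed close to the limit on either side.

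**Figure D3:**
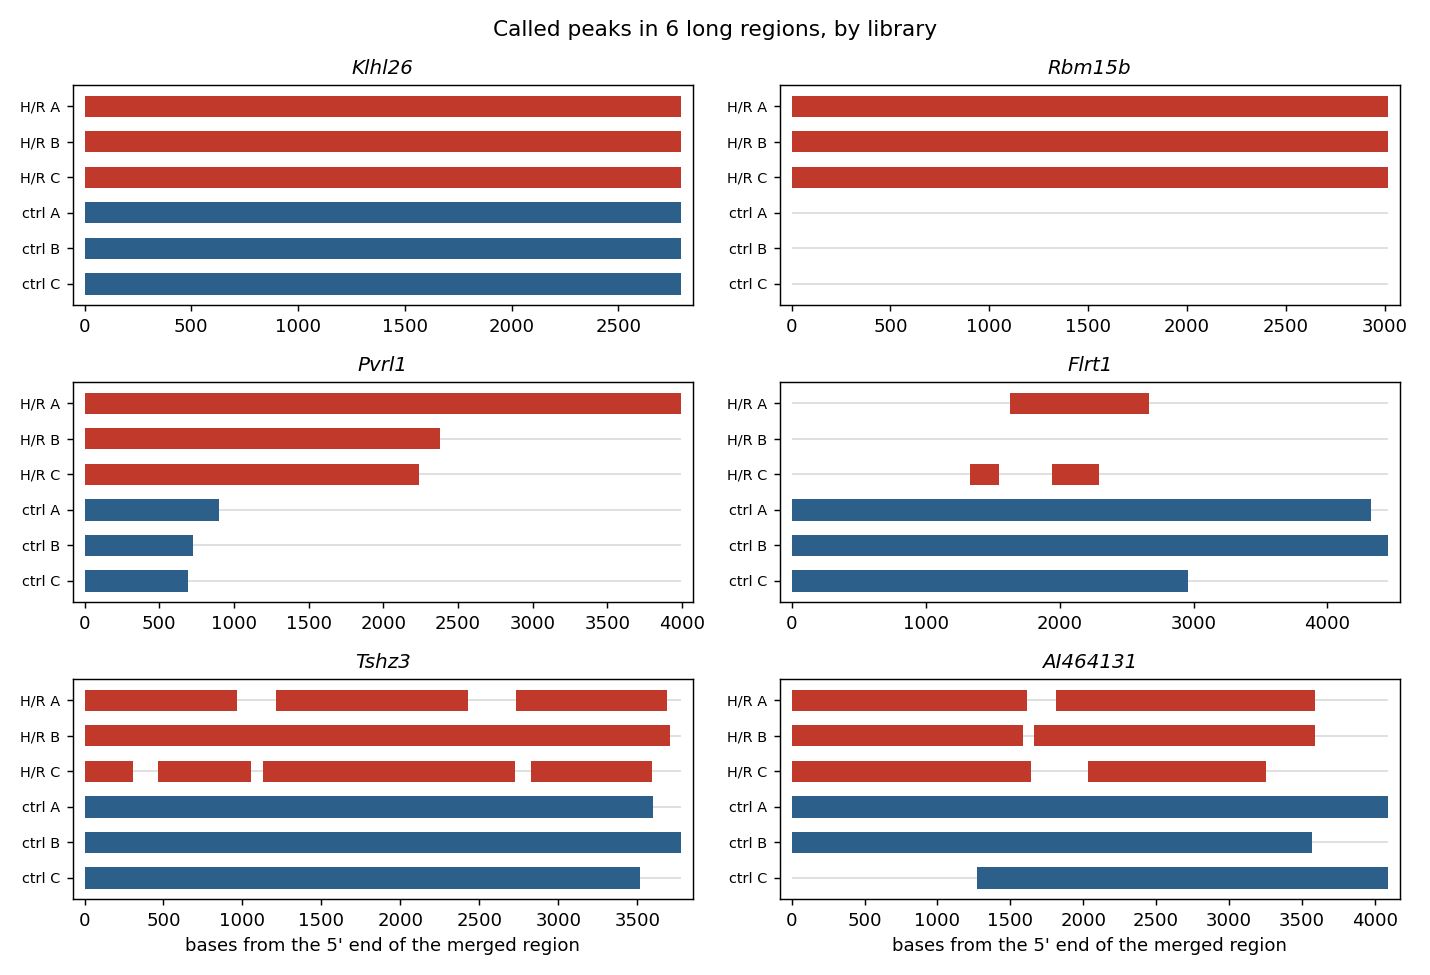
Bars mark the peaks called in each list (H/R A to C above control A to C) in Klhl26, Rbm15b, Pvrl1, Flrt1, Tshz3 and AI464131, in bases from the 5′ end of the merged region. Klhl26 was called over the same 2792 bases in all lists, Rbm15b only in H/R, and AI464131 as 2 peaks in each H/R list and 1 in each control list.

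The last question was whether H/R lists break a long control peak into several. Long peaks were chosen in 1 list and then read only in the other 5. Most were again found as a single long peak: of the 1471 long peaks of control C, 90.1%, 94.0% and 83.3% were 1 long peak in the 3 H/R lists (A, B, C). They were found as 2 or more peaks in 2.04%, 0.408% and 5.23% in the same lists, and in 0.340% and 0.204% in control A and B. The long peaks of control A were in pieces in 1.97%, 0.537% and 4.92% in H/R and in 0.268% and 0.134% in control B and C.

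The share in pieces differed between the H/R lists. Whichever list chose the peaks, H/R C had them in pieces in 4.34% to 5.23%, H/R A in 1.19% to 2.31%, and H/R B in 0.296% to 0.537%. Control A, B and C had 0.340% to 1.25%, 0.198% to 0.362% and 0.134% to 0.370%. H/R B was within the range of the control lists, and the 2 longest lists, H/R C and H/R A, had the highest shares. For each choosing list the mean share was higher in H/R readers than in control readers, for example 2.56% against 0.272% for control C and 2.37% against 0.467% for H/R A. None of the 6 comparisons passed the test (exact two-sided permutation tests of 2 against 3 lists, p = 0.2 or 0.4, where 0.2 is the smallest possible, adjusted p = 0.4).

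With every list at 7863 peaks the shares fell to 0.775% to 0.931% in H/R C, 0.136% to 0.407% in H/R A and at most 0.0537% in H/R B, against 0.0578% to 0.465% over the 3 control lists. Only H/R C then stood above every control list. Of the 1282 regions long in all 3 control lists, 31 (2.42%) had 2 or more peaks in H/R A, 7 (0.546%) in H/R B and 82 (6.40%) in H/R C, and 5 (0.390%) had them in all 3. Of the 1610 regions long in all 3 H/R lists, 22 (1.37%), 7 (0.435%) and 6 (0.373%) had 2 or more peaks in the control lists (A, B, C), and 1, Amer1, in all 3. These region counts took any peak that overlapped the merged region. A second peak could therefore lie beside a long peak of the other group and not within it.

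**Figure D4:**
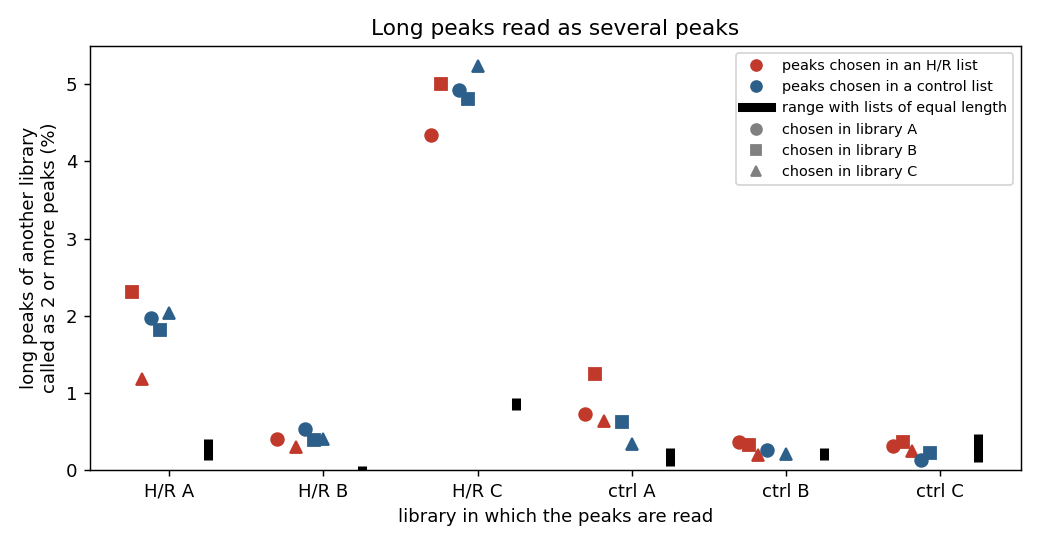
Each point is the share (%) of the long peaks of one list (colour for its group, shape for its letter) that a second list, on the horizontal axis, called as 2 or more peaks; thick lines give the range with every list at 7863 peaks. H/R C stands highest at 4.34% to 5.23% and H/R B lies within the range of the control lists.

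The 5 regions with 2 or more peaks in all H/R lists were in AI464131, Arid5a, Gm14420, Ttc28 and Pcdhb22. Not all of these peaks were parts of a long control peak. In Arid5a the peak of control C ended at base 36321892, and the second peak of H/R A began at 36321898. In Ttc28 the peak of control C ended at 111287004, and the second peak of H/R A began at 111287261. In 4 of them at least 1 control list also had 2 peaks. AI464131 was the only region called as 1 peak in each control list (4090, 3573 and 2818 bases) and as 2 in each H/R list, where the pieces were 1782 and 1615 bases in H/R A, 1928 and 1589 bases in H/R B and 1217 and 1640 bases in H/R C. Its highest fold was 11.14, 10.6 and 16.7 in H/R and 10.23, 35.26 and 18.4 in control, which overlapped. Amer1, a brake on Wnt signalling, had 2 peaks in each control list, 2 in H/R A and C and 1 of 8078 bases in H/R B.

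Tshz3, a zinc finger transcription factor of neural development, had the most pieces. It was called as 3 peaks of 964, 1217 and 959 bases in H/R A, as 1 peak of 3705 bases in H/R B and as 4 peaks of 305, 584, 1597 and 770 bases in H/R C. In control it was 1 peak of 3599, 3774 and 3516 bases. Tshz3 was chosen after its values were seen, and H/R B, like each control list, had a single peak.

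The gene lists held long peaks to very different degrees. Beside the 26.7% of all genes with a peak, 225 of 295 C2H2 zinc finger genes (76.3%) had a long peak, and 97 (32.9%) had one in all 6 lists, beside 10.9% of all genes. These genes encode DNA-binding repressors and activators whose finger array usually sits in one last exon. An exon of 1500 bases or more was present in 90.2% of them, against 55.4% of all genes with a peak and a transcript model, and of the genes with such an exon 84.6% had a long peak, against 48.1%. The number of C2H2 genes with a long peak was 191, 189 and 168 in H/R and 205, 160 and 120 in control. BTB and SCAN zinc finger genes had long peaks in 38 of 56, and in 77.6% of those with such an exon. Zbtb10 was called over the same 1514 bases in all 6 lists, with fold enrichment of 91.45, 71.57 and 84.36 in H/R and 164.77, 211.48 and 150.0 in control.

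Very large cytoskeletal and scaffold genes followed, with 30 of 42 (71.4%) and 21 (50%) long in all 6 lists. Plec, which encodes the cytoskeletal linker plectin, had the same 7412 bases called in every list, with fold enrichment of 90.27, 96.13 and 129.01 in H/R and 98.64, 120.72 and 75.19 in control, which overlapped. Fat4, a giant cadherin, had 3 long regions, with a first exon of 5195 bases called whole in all 6 lists. Few-exon transcription factor families had 37 of 63, among them Irf2bp1 with fold enrichment of 135.65, 68.55 and 142.27 in H/R and 229.45, 358.63 and 161.63 in control. In Irf2bp1 the groups did not overlap. Of the 3 retrotransposon-derived and imprinted genes with a peak, Peg10 and Peg3 were long in all 6 lists, Peg10 with peaks of 6394, 6394 and 6391 bases in H/R and 6394 bases in each control list.

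Chromatin regulators had 43 of 91 (47.3%), with 31 long in all 6 lists. Arid1b, a subunit of the BAF chromatin remodelling complex, was called over 1554 bases of its first exon in every list, with 83.97, 82.24 and 69.86 in H/R and 160.07, 133.24 and 123.94 in control. Kmt2a and Kmt2c, histone H3K4 methyltransferases, had 3 long regions each, and 2 of each gene's regions were long in all 6 lists. Zfhx3 and Zfhx4, zinc finger homeobox genes of neural differentiation, also had 3 each, all long in all 6 lists.

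Large-exon genes of cell division and DNA repair had 13 of 28, protocadherins 16 of 32, kelch and BTB adaptors 22 of 52, receptor tyrosine kinase adaptors 10 of 19, interferon-induced GTPases 10 of 18 and neuronal adhesion and guidance genes 14 of 36. Irs2, an insulin receptor substrate, was called over 3989 bases of its first exon in all 6 lists, with fold enrichment of 48.73, 55.34 and 64.57 in H/R and 71.72, 100.47 and 67.95 in control. Spry1, an inhibitor of growth factor signalling, had the same 2045 bases in all lists, with 55.38, 82.6 and 62.23 in H/R and 102.44, 118.43 and 55.05 in control, which overlapped. The interferon-induced gene Gvin1 had long peaks in all 6 lists, but it has near-identical copies and its reads may be shared between them.

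The lowest shares were in solute carriers (52 of 169, 30.8%), kinesin motors (8 of 34) and heat shock and endoplasmic reticulum chaperones (11 of 60, 18.3%). Among genes with an exon of 1500 bases or more, the shares were 52.04% for solute carriers, 47.1% for kinesins, 50% for protocadherins and neuronal adhesion genes and 39.3% for chaperones, close to or below the 48.1% of all such genes. In the other lists the share was 57.9% for kelch and BTB adaptors, 60.6% for chromatin regulators, 61.9% for division and repair genes, 69.8% for few-exon transcription factors, 71.4% for both receptor adaptors and interferon-induced GTPases and 81.1% for scaffold genes. The chaperones with long peaks were strong: Hspa1b, a heat shock protein 70 encoded by a single exon, had peaks of 2378, 2526 and 2502 bases in H/R and 2810 bases in each control list, with fold enrichment of 25.72, 28.56 and 45.52 in H/R and 55.49, 73.7 and 47.97 in control. No gene list had more than 3 H/R-only regions, and none had a control-only region. Both classes were rare among the 2856 long regions, with 64 (2.24%) in the first and 3 (0.105%) in the second. Counts this small cannot show whether a gene list differs from the long regions as a whole, and no test was made of them.

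**Figure D5:**
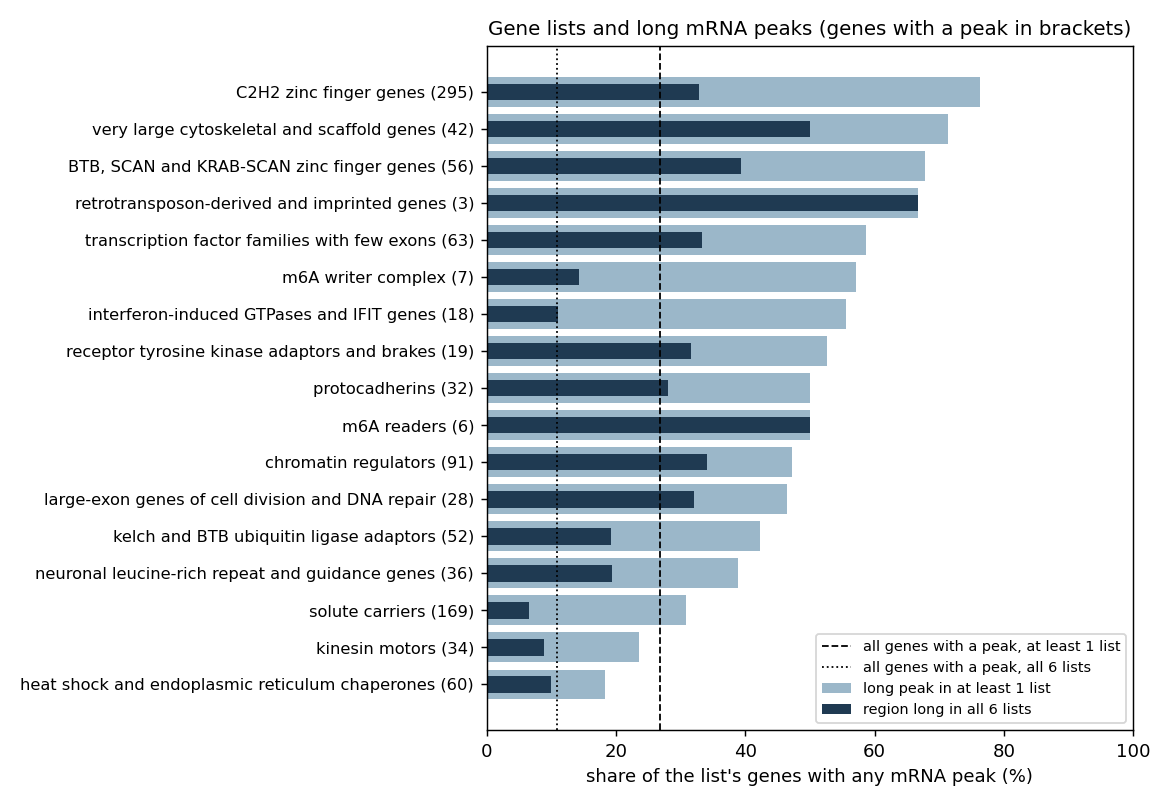
For each gene list shown (number of its genes with any mRNA peak in brackets), the share of those genes (%) with a long peak in at least 1 list and in all 6 lists. C2H2 zinc finger genes stand at 76.3% and scaffold genes at 71.4%, beside 26.7% of all genes, and chaperones at 18.3%.

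The m6A machinery itself was among the long regions. Of 7 writer complex genes with a peak, 4 had a long one (57.1%), beside 26.7% of all genes with a peak, and 5 of the 7 had an exon of 1500 bases or more. Of those 5, 80% had a long peak, against 48.1% of all genes with such an exon. Only 1 of the 7 (14.3%) had a region long in all 6 lists, beside 10.9% of all genes with a peak. Rbm15, the relative of Rbm15b, was long in all 6 lists, with longest peaks of 3295, 4750 and 3170 bases in H/R and 3444, 3451 and 3405 bases in control and fold enrichment of 33.43, 42.39 and 34.52 in H/R and 50.43, 78.51 and 48.23 in control. Cbll1, which encodes the E3 ligase HAKAI of the complex, was long in all 3 H/R lists (1533, 1649 and 1533 bases) and in control B and C (1540 and 1675 bases), and had 1468 bases in control A. Wtap, the regulatory subunit, had 1 long peak, in H/R A, of 1526 bases with a fold of 8.41.

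Of 6 reader genes with a peak, 3 (50%) had a long peak, beside 26.7% of all genes with a peak. The same 3 were long in all 6 lists, beside 10.9% of all genes with a peak. An exon of 1500 bases or more was present in 5 of the 6. Of those 5, 60% had a long peak, against 48.1% of all genes with such an exon. Ythdf2, whose protein promotes decay of methylated mRNA, had 1 coding exon of 1584 bases called whole in every list, with fold enrichment of 14.74, 16.62 and 17.39 in H/R and 25.21, 33.1 and 21.79 in control. Ythdf3 had a coding exon of 1599 bases called whole in every list, with 10.37, 12.74 and 12.06 in H/R and 23.08, 18.37 and 15.54 in control. In both, every control value was above every H/R value, an order found in 61.5% of the long regions called in all lists.

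The sequence of long peaks was compared with that of shorter peaks. DRACH stood at 20.8 ± 0.0977 sites per kb in long peaks and 20.3 ± 0.233 in shorter peaks, and GGAC at 4.09 ± 0.0941 and 4.96 ± 0.111 per kb (SD, n = 6 lists, exact sign-flip permutation test, p = 0.031 each, adjusted p = 0.031). DRACH was thus slightly denser and its favoured core sparser in long peaks, in 6 of 6 lists. The lists share many regions, with 1142 of 2856 long in all 6, so their agreement is not that of independent sequences. The p-value measures the spread between lists and not between regions. GC content was 49.6 ± 0.488% in long peaks and 52.8 ± 0.523% in shorter peaks. On the same transcripts, DRACH stood at 20.8 per kb inside long peaks and 19.6 per kb outside every peak, and DRACH sites with the core GGAC at 3.66 and 3.30 per kb (exact p = 0.031 each, adjusted p = 0.036 over 8 measures, n = 6 lists). Between H/R and control lists the density of DRACH in long peaks was 20.8 ± 0.0353 and 20.9 ± 0.129 per kb (exact p = 0.4, n = 3 each) and that of GGAC 4.07 ± 0.0837 and 4.12 ± 0.116 per kb (exact p = 0.7, n = 3 each), so neither differed beyond the spread.

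Long peaks of C2H2 zinc finger genes held other DRACH letters. In their long peaks AAACC was the most frequent form, at 13.1 ± 1.16% of DRACH sites, against 5.80 ± 0.107% in long peaks of other genes, where AGACA was the most frequent (SD, n = 6 lists). DRACH sites with the core GGAC were sparser in them, at 2.62 ± 0.177 per kb, against 3.76 ± 0.0584 in other genes (exact p = 0.031, adjusted p = 0.036, n = 6 lists). All DRACH forms together stood at 21.1 and 20.8 per kb and did not pass the test (exact p = 0.094, n = 6 lists). The short linker that joins neighbouring fingers is encoded by a recurring sequence, searched on the transcript strand only, as GGNGA followed at once by NAANCC (N is any base). It overlaps a DRACH site where its last N is A, giving AAACC, in capitals here.
Zfp287, chr11:62714223-62714247, minus strand: acacactggagagAAACCgtacaaa
Zfp386, chr12:116060451-116060475, plus strand: ccatacaggagagAAACCatacaaa
Zfp84, chr7:29777198-29777222, plus strand: ccacactggcgaaAAACCttacgaa
Zfp248, chr6:118429073-118429097, minus strand: tcatacaggggagAAACCctacaag
The longest peak held 9 such linkers in Zfp287, 8 in Zfp386, 6 in Zfp84 and 6 in Zfp248, of which 4, 7, 4 and 6 contained AAACC. Over all C2H2 genes, 73.2%, 73.2% and 70.9% of long peaks in H/R and 75%, 68.7% and 61.6% in control held at least 1 linker, against 7.22% to 8.33% of other genes' long peaks. Per kb the linker stood at 1.896 ± 0.222 in C2H2 long peaks and 0.0774 ± 0.0158 in other long peaks (SD, n = 6 lists). Since genes were listed as C2H2 for their fingers, the linker and AAACC values describe the list and carry no test. A match is a letter pattern and not a measured methylation site, and a peak of this length does not separate its sites.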

How the data were processed

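The authors trimmed reads with cutadapt 1.9.3, aligned all libraries to mm10 with HISAT2 2.0.4, called peaks with MACS for each IP against its input and screened them for peaks on mRNA exons (whether peaks were trimmed to exons is not given in the sources used here). The deposited mRNA lists give for each peak a fold enrichment (a ratio of IP to input), a score of -10 times the log10 of the p-value, and an FDR in percent, as made by the authors. The lists hold no read counts. Read numbers are given in the paper's supplement and were not used here, so depth was not compared between lists. Of the 18 peak lists, those for lncRNA and circRNA were used only to ask which long peaks they share.

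Lists were mapped to groups by name (3 H/R, 3 control). Their letters are not tied to the samples' replicate numbers. Peaks were merged over lists at an overlap of 1 bp. Exon, UTR and stop positions came from the listed transcripts in the GRCm38 annotation, with a model for 99% of mRNA peaks, and sequence from the mm10 (GRCm38) genome. Python 3.11.15, pandas 2.3.3, NumPy 2.4.6, SciPy 1.17.1, statsmodels 0.14.6 and pysam 0.24.0 were used. Tests were two-sided exact permutation tests over lists, with Benjamini-Hochberg adjustment within each family. Since the lists share many regions, tests over 6 lists measure the spread between lists and not between regions. Scripts were tested on simulated data. Members and gene lists were chosen with earlier results of these data known. Named regions were the 10 long in all 6 lists with the highest fold in their lowest list, the 5 widest, the 5 with the highest lowest fold in each class of presence and of pieces, the 2 of each gene list long in most lists, and the writer complex; others are said to be chosen after their values were seen. Some members of these classes are not reported here. Alternatives were length limits of 1000 and 2000 bases, a p score of 100, a fold of 10, lists of equal length, another base class and overlap, and leaving out each list.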

Additional observations from a re-analysis of the deposited data

How the results depend on the processing

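Of 279 alternatives, 206 kept the direction and the side of the threshold or stayed close to the value, but some of these still shrank. The threshold was 0.05, and the permutation test of 3 against 3 lists cannot go below 0.1. Tests between the groups could thus leave the 206 only by a change of sign, and this number does not measure how stable they were. The ratio of long to shorter median fold differed by 0.421 (H/R minus control) and by 0.0771 at a fold of 10 and 0.00116 at equal list length, and the share of long peaks in pieces by 1.96 percentage points and by 0.635 and 0.194 in the same settings, 1.37 at 1000 bases and 1.31 at a p score of 100. No paired analysis was possible because no label links the letter of a list to a replicate number. At a limit of 1000 bases the share of long peaks in a list differed by -10.7 percentage points (H/R minus control), and there were 152 H/R-only, 5 control-only and 1898 always long regions, 100 long in H/R lists alone and 21 long in control lists alone. At 2000 bases these counts were 29 H/R-only, 687 always long and 27 long in H/R lists alone. A p score of at least 100 left 7 regions long in control lists alone. At a fold of at least 10 the number of long peaks differed by -99.7 and their share by -2.43 percentage points, with 21 H/R-only, 24 control-only, 27 long in H/R lists alone and 33 long in control lists alone. At equal list length the share differed by 0.0424 percentage points, with 12 H/R-only, 26 control-only, 15 long in H/R lists alone and 25 long in control lists alone. The cause of these shifts was not tested.

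The small difference in 5′UTR share (H/R minus control) was -0.0628 percentage points and changed sign to 0.104 percentage points at 1000 bases, 0.0844 at a fold of 10, 0.109 at equal list length, 0.0327 by the class of the peak centre and 0.0415 without control C, the lowest value on leaving out a list being -0.182. That in GGAC per kb was -0.0465 and changed sign to 0.0948, 0.0545 and 0.00854 at a fold of 10, at equal list length and without control C, with a lowest value of -0.107. Leaving out 1 list gave 63 to 241 H/R-only regions (241 without control A, 121 without H/R B) and 4 to 7 control-only regions (7 without control C, 6 without control B, 5 without H/R A or C). It gave 51 to 180 long in H/R lists alone (180 without control A, 102 without H/R B, 76 without H/R C) and 16 to 38 long in control lists alone (38 without H/R B, 32 without control C, 20 without control B). With 5 lists the sign-flip test cannot go below 0.0625, so each difference between long and shorter peaks missed the threshold while keeping its sign: 16.7 to 18.4 percentage points for the 3′UTR, -10.4 to -9.87 for the 5′UTR, -8.12 to -6.77 for coding sequence, 0.503 to 0.588 per kb for DRACH and -0.884 to -0.853 per kb for GGAC. With 3 lists per group the exact permutation test cannot go below 0.1, and depth per library, which the lists do not give, limits all comparisons of presence and fold.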

Other observations

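The long mRNA peaks were looked up in the other deposited lists. None of them was shared with a lncRNA list, whereas 5.69%, 5.56% and 6.03% of the long peaks in H/R and 5.68%, 6.63% and 6.32% in control were also in the circRNA list of the same library, against 7.21% to 8.67% of the shorter mRNA peaks. The lncRNA lists held 121, 134 and 97 peaks of 1500 bases or more in H/R and 120, 105 and 83 in control. The circRNA lists held 149, 157 and 135 in H/R and 155, 137 and 117 in control. In the lncRNA lists these were 4.57%, 6.77% and 2.99% of the peaks in H/R and 7.53%, 9.42% and 7.93% in control, the same order of the groups as in the mRNA lists, and no test was made of it.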
